A study of Saccharomyces cerevisiae with 24 samples.

Results

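The proteins of the large (60S) subunit of the cytosolic ribosome of budding yeast were followed here through the ribosome footprints on their own mRNAs. Members were all rows of the deposited expression table that hold at least 1 locus tag whose standard name is RPL followed by a number, so that the mitochondrial MRPL genes stay out. There were 50 such rows among the 5564 rows of the table. They hold 74 of the 76 RPL genes of the reference, because 24 rows join 2 copies that are close to identical and 26 hold 1 gene. RPL41A and RPL41B, which encode a peptide at the bridge between the subunits, were not analysed here. In the joined row of RPL40A, RPL40B, RPS31 and UBI4 all genes encode ubiquitin, either fused to a ribosomal protein or, in UBI4, as a chain of ubiquitin units that cells use under stress. Its value is therefore not one of RPL40 alone, and it is given apart wherever it differs.

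The large subunit joins amino acids at its peptidyl transferase centre and releases the growing chain through an exit tunnel lined by RNA and proteins. In yeast the genes of its proteins are switched as a group by Rap1, Fhl1, Ifh1 and Sfp1, and they are known to be turned down together when growth stops. Most of the proteins are encoded by a pair of paralogs, many of whose genes carry an intron.

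Strain BY4741, an auxotroph for histidine, leucine and methionine, was profiled in 23 libraries of 21 conditions, with cycloheximide in the lysis buffer of all of them as the methods give it. Unstressed cells in YPD at 30°C and cells given 0.2 mM hydrogen peroxide for 30 min (oxidative stress) had no drug in the medium or had cycloheximide at x1/64, x1/16, x1/4, x1, x8 or x100, where x1 stands for 100 μg/ml. The x100 dose was repeated independently, giving 2 libraries in each of both stresses, while the remaining conditions had 1 each. Heat shock was 20 min at 42°C in YPD without drug or at x1. Starvation was done in SD medium without drug, with complete medium, no amino acids for 20 min, or only His, Met and Leu put back. In 2 more libraries unstressed cells without drug were lysed with edeine or aurintricarboxylic acid (aurin), inhibitors of translation initiation.

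Values are reads per kilobase and per 1e6 reads (RPKM), a level per length and relative to the rest of the library, so that a fall of the total would not be seen. Footprints follow both the amount of an mRNA and the ribosomes on it, and these cannot be told apart here. Depth was 1.92 to 27.9 M reads (M, 1e6; median 6.94 M). The labels were checked on marker genes. Without drug, 10 of 10 peroxide genes were more than 2-fold higher in oxidative stress than in unstressed cells. So were 10 of 10 heat shock genes in heat shock, and 7 of 10 amino acid synthesis genes in SD without amino acids against complete SD. Their median log2 differences were 4.68, 7.93 and 3.22, where the medians of all rows were 0.73, -3.1e-04 and 0.87. The share of all rows past 2-fold higher is not given here. These markers are not specific, as 8 of 10 heat shock genes also passed 2-fold in oxidative stress and without amino acids. Primer set, the batch in the labels, was set 1 in 12 libraries and set 2 in 11. Both heat shock libraries are set 2 and the unstressed libraries they are compared with are set 1, so set and heat shock cannot be told apart.

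Members were among the most heavily translated genes of growing cells. In the 8 unstressed libraries the 50 rows took 8.62 to 10.5% of all reads (median 9.66%), and in complete SD they took 9.70%. In the 8 libraries of oxidative stress the share was 1.44 to 2.87% (median 2.23%). In heat shock it was 1.39% without drug and 0.935% at x1 (95% Wilson interval 0.924 to 0.946%, which covers counting error only). Without amino acids it was 1.44%, and 3.25% with His, Met and Leu. All stressed and starved libraries lay below all the others. The joined row with UBI4 did not follow: it took 0.433 to 0.545% of the reads in unstressed cells, 0.335 to 0.460% in oxidative stress and 0.655% in heat shock without drug, where the other 49 rows together took 0.737%.

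**Figure D1:**
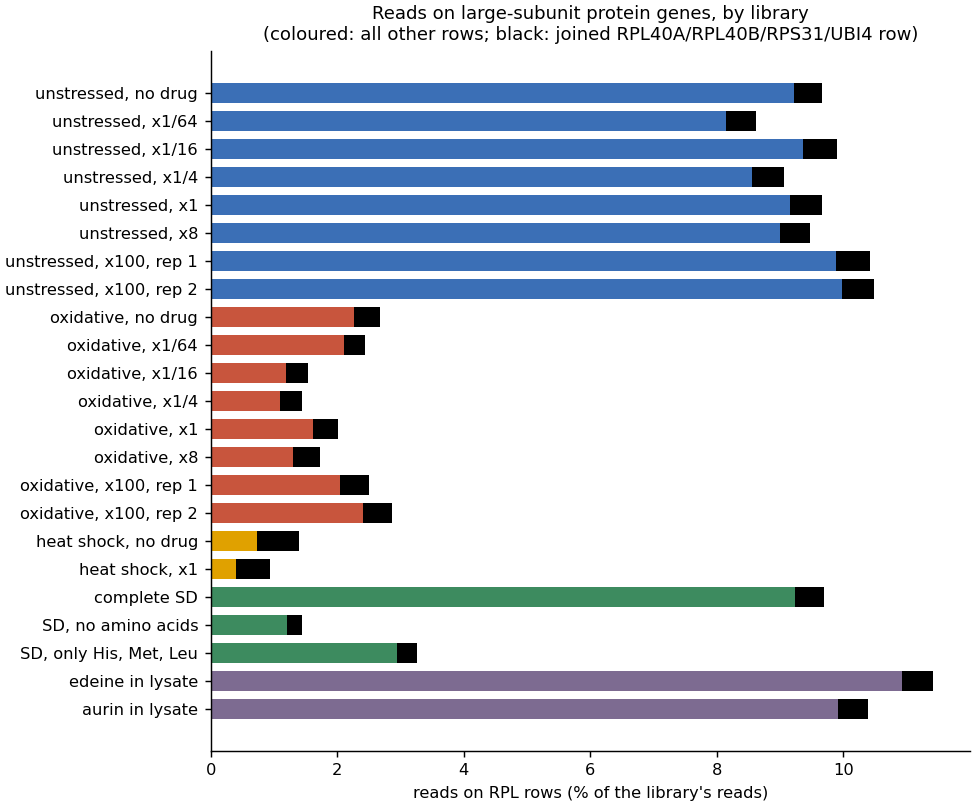
Reads on the 50 RPL rows as a percentage of each library's reads, with the bars starting at 0 and 1 bar per library. The coloured part is the sum of 49 rows and the black part the joined RPL40A/RPL40B/RPS31/UBI4 row, which fills much of the bar in heat shock (0.655% without drug) while the coloured part is between 8.14 and 9.98% in the unstressed series.

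Levels of the members spanned more than 10-fold in growing cells. RPL32 had the highest median level over the 8 unstressed libraries, 7671 RPKM (lowest 4228, highest 8516), followed by RPL39, whose small protein lines the exit tunnel, with 6544 RPKM (2817 to 8396), and RPL28 with 6494 RPKM (3307 to 7343). RPL22B had the lowest level, 258 RPKM (224 to 338), preceded by RPL31B with 442 RPKM (326 to 486) and RPL17B with 540.5 RPKM (366 to 623). Each member's range overlapped that of its neighbour in this order, from the top to the bottom. Of the 10 genes without a paralog, 9 held the first 9 places, and RPL5 held place 12. Joined rows were divided by the length of their copies together (850 nt for RPL11, with copies of 525 nt each). They thus give a level per copy, and this order does not compare whole pairs with genes that have no paralog. In unstressed cells without drug the members ranked between place 14 (RPL39) and place 418 (RPL22B) of the 4383 rows with a mean of at least 10 RPKM, a filter that all 50 members passed. Levels of different members are less sure than those of the same member between libraries, because the counted length, recovered from the values, was the gene's span less 100 nt per locus tag in 12 rows and another length in 38. The joined RPL7A/RPL7B row was divided by 3013 nt and so includes introns, which lowers its RPKM against the rest.

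The unstressed library at x1/64, with 2.03 M reads, stood apart from the other 7 unstressed libraries. In it 27 of 50 members had their lowest unstressed value and 6 their highest, and its members lay 0.36 on the log2 scale below the median of the other unstressed libraries. RPL37A was lowest by comparison, with 782 RPKM against 1767 to 2154 RPKM in the other 7. RPL39 had 2817 RPKM there against 6045 to 8396 RPKM. RPL10 by contrast had its highest value there, 6333 RPKM. Over the members, the difference of this library went with the logarithm of the counted length (Pearson r = 0.43, 50 members). Rows of shorter counted length thus tended to be lower. Joined rows add up the lengths of their copies, so gene length and joining are mixed in this value. What set this library apart was not tested, and results that rest on it are given with and without the x1/64 dose.

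Oxidative stress lowered the footprints of all 50 members. With dose as a block, limma on log2(RPKM + 1) called 50 of 50 members lower and none higher (Benjamini-Hochberg adjusted p under 0.05 over 4383 rows), where 22.7% of all rows were called lower. The median difference of the members was -2.49 on the log2 scale, a 5.61-fold lower level, while the median of all rows was 0.54 higher. In 49 of 50 members all 8 oxidative libraries lay below all 8 unstressed libraries, a pattern shown by 12.4% of all rows. The exception is the joined row with UBI4. At x100, the dose with repeated cultures, 49 of 50 members were called lower, against 18.4% of all rows, with a median of -2.20. Replicates at x100 differed by a median of 0.06 over the unstressed members and 0.23 over the oxidative ones (largest 0.61). Without drug, a comparison of single libraries and so without a test, 48 of 50 members were more than 2-fold lower (12.7% of all rows), with a median of -2.16.

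**Figure D2:**
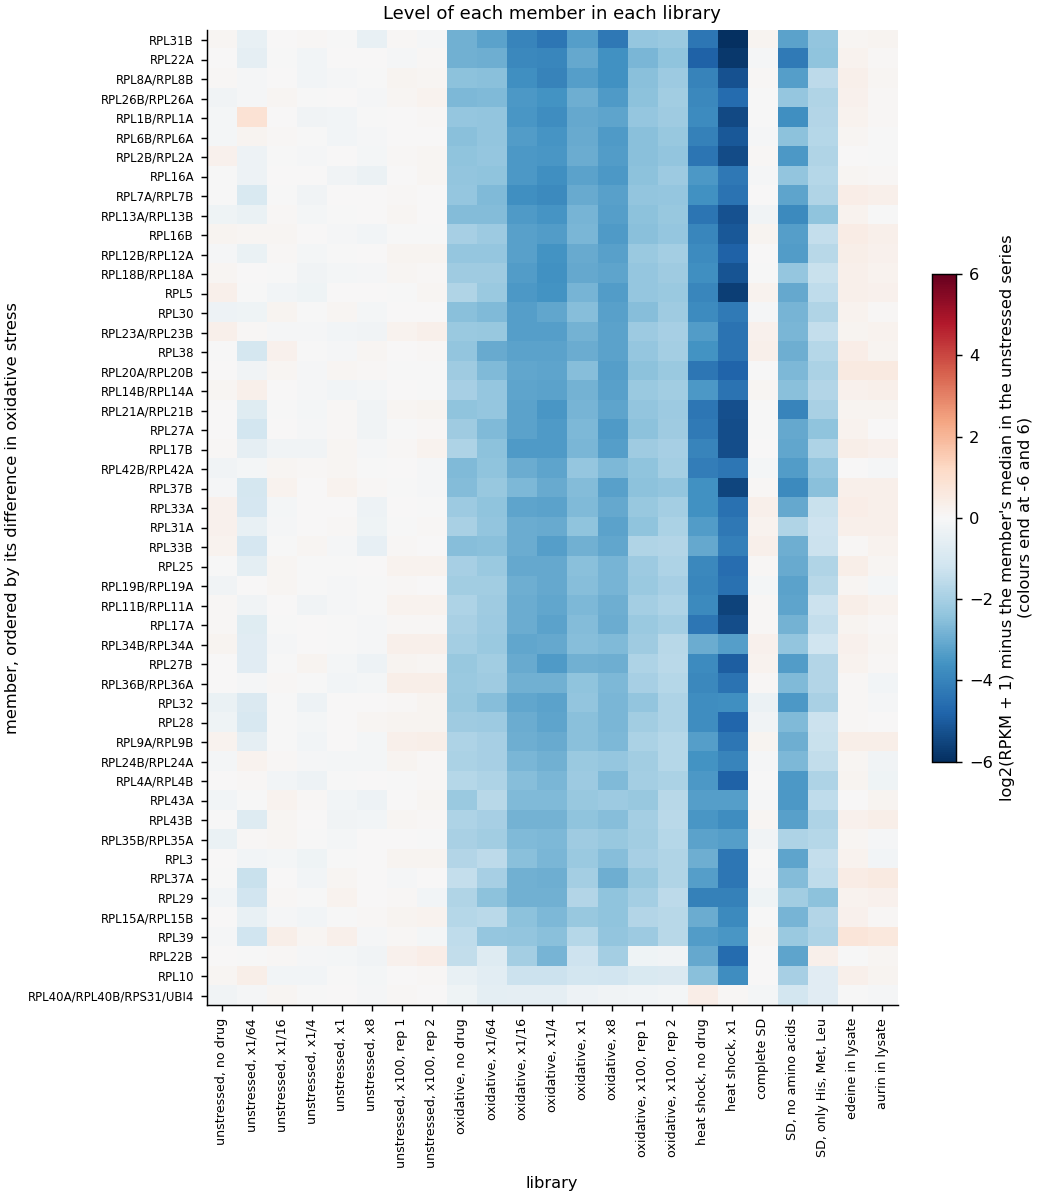
Difference of each member, on the log2 scale of RPKM + 1, from its median over the 8 unstressed libraries, with 50 members as lines and 23 libraries as columns. Blue stands for lower, and most members are blue in oxidative stress, heat shock and starvation, whereas RPL22B is near white at x100 and with His, Met and Leu, RPL10 is pale in oxidative stress, and the joined row with UBI4 reaches its highest value, 3027 RPKM, in heat shock.

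The genes of proteins next to the peptidyl transferase centre fell by different amounts. RPL10, which joins the subunit last and reaches towards the transferase centre, had 5495 RPKM without drug and 4398 to 6333 RPKM over the unstressed series (median 5000.1). In oxidative stress it had 3669 RPKM without drug and 2046 to 3669 RPKM over the series (median 2468). Its groups were apart, yet it was the member with the highest level in each of the 8 oxidative libraries, whereas it held place 8 in the unstressed series. The fall was 1.96-fold (log2 -0.97 ± 0.07 SE, adjusted p = 6.94e-08 by limma), the smallest among the 49 rows without UBI4. RPL3, which shapes the centre itself, went from 3626 to 4873 RPKM (median 4337) to 644 to 1452 RPKM (median 1001), a log2 difference of -2.13 ± 0.12. The RPL2 pair, which binds near the centre, had 2376 to 3480.4 RPKM (median 2904) in unstressed cells and 254 to 586 RPKM (median 435) in oxidative stress, a 7.27-fold fall (log2 -2.86 ± 0.15, adjusted p = 2.08e-09 by limma). Set against the median of the other members in each library, RPL10 lay 0.75 to 1.40 above it on the log2 scale in unstressed cells and 2.10 to 2.97 above it in oxidative stress. Such shifted positions, with all 8 oxidative libraries on one side of the 8 unstressed ones, were found upwards in 6 rows (RPL10, RPL15, RPL22B, RPL3, RPL43B and the joined row with UBI4) and downwards in 2 (RPL6 and RPL8). These shifts are a description and were not tested, and how many of all rows show such a shift was not counted. In RPL6 the groups were barely apart. Its lowest unstressed position was -0.0155 and its highest oxidative one -0.0182, where the pooled SD of a single library was 0.15.

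Rows of proteins along the exit tunnel and at its rim ranged from the largest fall of all members to one of the smaller ones. RPL25, which binds at the tunnel exit where nascent chains meet their chaperones, had 3841 to 6675 RPKM (median 5733) in unstressed cells and 673 to 1595 RPKM (median 1114) in oxidative stress. RPL39 went from the range above to 1133 to 2257 RPKM (median 1387), which at 4.01-fold lower (SE 0.17 on the log2 scale) was the smallest fall after the rows of UBI4, RPL10 and RPL22B. RPL31B, the minor copy of another rim protein, had the largest fall of all members, from 326 to 486 RPKM to 21.0 to 93.3 RPKM (log2 -3.23 ± 0.22, adjusted p = 2.51e-08 by limma). Its major copy RPL31A differed by -2.49 ± 0.14. The remaining tunnel rows (RPL4, RPL17A, RPL17B, RPL19, RPL26 and RPL35) lay between -2.91 (RPL26) and -2.15 (RPL35). RPL31B was the member with the lowest level in every oxidative library.

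Genes of the 5S ribonucleoprotein, which enters the subunit as a unit, fell side by side. RPL5 had 2786 to 4094 RPKM (median 3284) in unstressed cells and 275 to 938 RPKM (median 571) in oxidative stress. The RPL11 pair had 1988 to 2655 RPKM (median 2296) and 264 to 642 RPKM (median 441). Their log2 differences were -2.72 ± 0.16 and -2.45 ± 0.14, so that both groups were apart in both rows. At the base of the stalk that recruits translation factors, the RPL12 pair differed by -2.73 ± 0.17. RPL24, which joins late and forms a bridge to the small subunit, differed by -2.26 ± 0.12.

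RPL28, in which mutations of the allele cyh2 make yeast resistant to cycloheximide, had 3307 to 7343 RPKM (median 6494) in unstressed cells and 717 to 1818 RPKM (median 1292) in oxidative stress. RPL42, whose protein lines the pocket that holds the drug, had 2687 to 3405 RPKM (median 3136) and 345 to 764 RPKM (median 543). Both were apart between the stresses at every dose, with log2 differences of -2.34 ± 0.18 and -2.58 ± 0.13. RPL30, whose protein is known to block splicing of its own transcript, had 4293 to 6034 RPKM (median 5302) and 535 to 1219 RPKM (median 868), a difference of -2.72 ± 0.14. Among members that fell most were also RPL22A (-3.10 ± 0.17), the RPL8 pair (-3.05 ± 0.18) and the RPL26 pair (-2.91 ± 0.16).

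The joined row with UBI4 had 2000.3 to 2521 RPKM (median 2317) in unstressed cells and 1549 to 2127 RPKM (median 1887) in oxidative stress, and these ranges overlapped. Its difference over the doses was -0.33 ± 0.08 (adjusted p = 0.00273 by limma). At x100 it was -0.18 ± 0.10 (adjusted p = 0.172), the only member not called there. How the reads of this row divide among its 4 genes was not tested.

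The size of the fall was also set beside copy number, length and level. Genes without a paralog had a median log2 difference of -2.37 over 10 rows, joined pairs of -2.66 over 23, and copies with a row of their own of -2.49 over 16. Over the 49 rows without UBI4 the difference went with the counted length at r = -0.12 (Spearman rho -0.26) and with the unstressed level at r = 0.03 (rho 0.07). The order of the levels was largely kept, with a rho of 0.86 between the member medians of both series over 50 rows. All of these rest on the same libraries and are given as a description.

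Copies of 1 protein could be set against each other in the 8 pairs whose copies have rows of their own (RPL16, RPL17, RPL22, RPL27, RPL31, RPL33, RPL37 and RPL43). Reads that fit both copies make each copy's value uncertain, and how they were divided is not given in the sources used here. In 7 of the 8 pairs the share of the B copy overlapped between the unstressed and the oxidative series. RPL22 was the exception. In RPL31 the overlap came from oxidative x100 replicate 1 (25.2%), and the other 7 oxidative libraries, at 11.2 to 20.2%, lay below all unstressed ones (21.9 to 25.6%). RPL22B held 5.19 to 8.24% of the summed RPKM of its pair (median 6.35%) in the 8 unstressed libraries. In the 8 oxidative ones it held 12.1 to 26.6% (median 18.1%), with no overlap.

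RPL22A had 4046 RPKM in unstressed cells without drug and 540.4 RPKM in oxidative stress, with 2795 to 4263 and 268 to 762 RPKM over the series. RPL22B had 265 and 93.4 RPKM without drug, with 224 to 338 and 36.9 to 220.1 RPKM over the series. Both copies were therefore lower in oxidative stress, A by -3.10 ± 0.17 and B by -1.40 ± 0.22 on the log2 scale (adjusted p = 6.29e-05 for RPL22B by limma). At x100 RPL22B differed by -0.55 ± 0.11 (adjusted p = 0.00599 by limma), and without unstressed x100 replicate 2 by -0.47 (adjusted p = 0.0599). The protein of the pair binds at the surface of the subunit, and in yeast it is known to restrain splicing of the RPL22B transcript. The B share was 17.8% in heat shock without drug and 11.7% at x1 (37 and 10 reads on RPL22B). It was 6.42% in complete SD, 11.5% without amino acids (19 reads) and 30.0% with His, Met and Leu (644 reads), the highest of all libraries.

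Other pairs leaned the opposite way in some conditions. RPL31B held 23.8% of its pair in complete SD, 10.8% without amino acids (26 reads) and 12.5% with His, Met and Leu. In heat shock it held 13.6% without drug (21 reads) and 0% at x1 (0 reads). RPL37B held 37.8 to 43.7% in unstressed cells, 22.2 to 42.5% in oxidative stress and 21.3% without amino acids (44 reads). RPL16B, the copy with the higher level in growing cells (62.6 to 71.1%), was at 49.0% without amino acids and at 62.2 to 72.0% in oxidative stress. In heat shock RPL16B was at 57.4% without drug and 51.9% at x1.

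**Figure D3:**
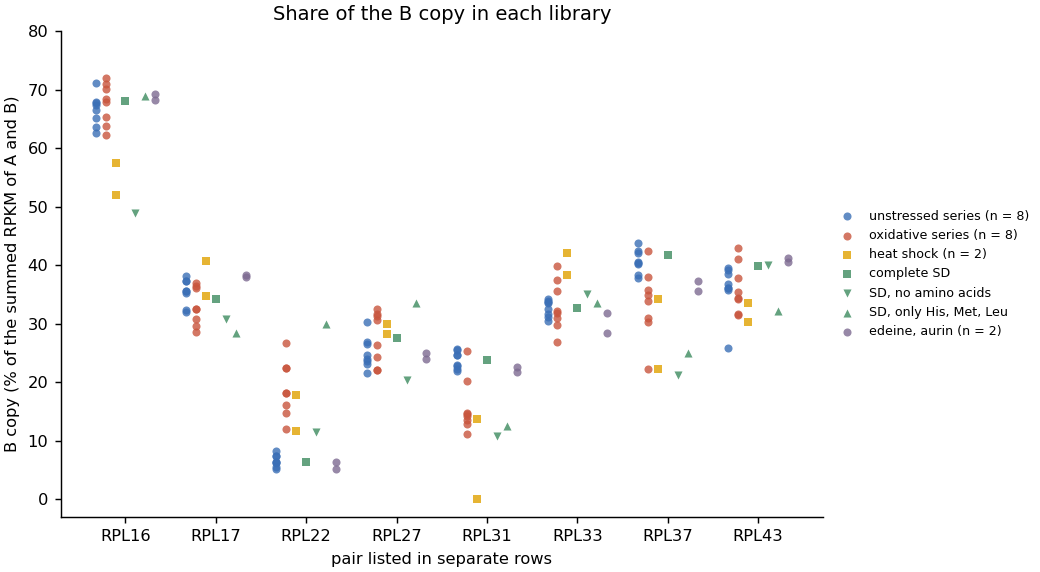
Share of the B copy, in percent of the summed RPKM of both copies, for 8 pairs with rows of their own, with 1 point per library and colours and shapes for the conditions. RPL22B holds 5.19 to 8.24% in unstressed cells, 12.1 to 26.6% in oxidative stress and 30.0% with His, Met and Leu, while the other 7 pairs overlap between both series.

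With cycloheximide in the medium the depth of the fall in oxidative stress followed a bent course. At matched doses the member median was -2.16 without drug and -1.91 at x1/64. The middle doses gave lower medians, of -3.09 (x1/16), -3.13 (x1/4), -2.67 (x1) and -2.91 (x8), and the highest dose, x100, gave -2.20. Both stresses share primer set 1 without drug, at x1/16 and at x1/4 and set 2 at x1/64 and x100, whereas at x1 and x8 the oxidative library has set 2 and the unstressed one set 1. Set and dose are thus mixed in this course, except among doses at which both stresses have the same set. Within set 1 the median went from -2.16 without drug to -3.09 and -3.13. Within set 2 it was -1.91 at x1/64 and -2.20 at x100. All 50 members were below 0 at each dose, so the direction was the same and its size changed from 3.76-fold at x1/64 to 8.74-fold at x1/4. The pooled SD of a single library, from the x100 pairs, was 0.15 on the log2 scale for the members. RPL8 had 430.1 RPKM in oxidative stress without drug, 150.5 RPKM at x1/4, and 422 and 539.8 RPKM at x100. RPL10 had 3669, 2076, 2626 and 2747 RPKM in the same libraries and so did not return to its drug-free level at x100, as RPL8 did.

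A straight slope over the logarithm of the dose, with stress and primer set as terms, was called for 1 member. RPL38 rose by 0.24 ± 0.07 per 10-fold dose (adjusted p = 0.0231 by limma), where 4.18% of all rows were called higher. The member median was 0.08. Centring each library on its median row gave 12 called members and leaving out the primer set as a term gave 3. Without the x1/64 libraries no member was called, and the same held without x100 and without oxidative x100 replicate 2. For a difference of the slope between the stresses limma called 0 of 4383 rows (0%), with 2 members at an unadjusted p under 0.05. Over the 49 rows without UBI4 the slope went with the counted length of the row at r = -0.43, higher in rows of shorter counted length.

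The bend itself was fitted with the square of the logarithm of the dose, a comparison added after the data had been seen. In oxidative stress it was called upward, that is lowest at middle doses, in 27 of 50 members (21.7% of all rows), with a member median of 0.18. In unstressed cells limma called no row of the table, 6 members had an unadjusted p under 0.05, and the member median was -0.12. The difference of the bend between the stresses was called in 24 of 50 members (9.72% of all rows), from 0.26 in RPL1 to 0.53 in RPL22B (adjusted p = 0.0254 for RPL22B). Centring each library on its median row left 15 members called in oxidative stress, and leaving out oxidative x100 replicate 2 left 17. Without the x1/64 libraries 3 members were called in oxidative stress and 0 for the difference, while the member medians were 0.21 and 0.31 against 0.18 and 0.32 with them. Why the calls were lost without this dose was not tested. Without the primer set as a term 3 were called for the difference (median 0.24), and 10 without unstressed x100 replicate 1 (median 0.32). No fit of the bend without both x100 replicates was run. The dose x1/64 has set 2 in both stresses and low depth (2.03 and 2.43 M reads).

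**Figure D4:**
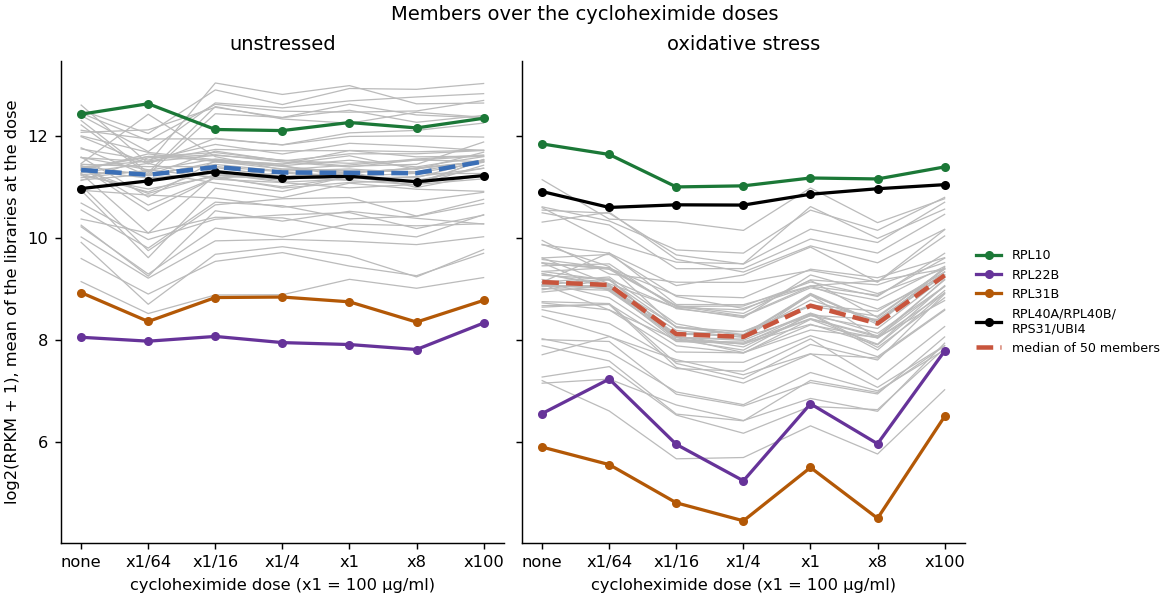
Level of each member as log2(RPKM + 1), the mean of the libraries at a dose, against the cycloheximide dose from none to x100, in unstressed cells (left) and oxidative stress (right). Grey lines are members, the dashed line is their median, and 4 members are coloured; in oxidative stress RPL22B is lowest at x1/4 (36.9 RPKM) and highest at x100 (219 and 220.1 RPKM).

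Heat shock lowered the members further. Against unstressed cells, with the drug as a block and the oxidative pair in the same fit, limma called 49 of 50 members lower (35.0% of all rows), with a median log2 difference of -4.10. The member not called is the joined row with UBI4 (0.32 ± 0.29, adjusted p = 0.351 by limma). In single libraries, all against the unstressed no-drug or x1 library, 49 of 50 members were more than 2-fold lower without drug (21.8% of all rows, member median -3.66 or 12.6-fold). At x1 it was 49 of 50 (34.9% of all rows, member median -4.50 or 22.6-fold).

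RPL22A had 136 RPKM in heat shock without drug, 169 reads against 39947, which is 29.7-fold lower (95% interval of the reads' ratio 25.6 to 34.8), and 72.2 RPKM at x1. RPL5 had 218 RPKM without drug and 64.8 RPKM at x1, against 4094 and 3356 RPKM in unstressed cells. At x1 it was 51.8-fold lower (44.1 to 61.2). These are low values for genes among the most translated in growing cells.

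For RPL31B, 21.0 RPKM without drug became 0 reads at x1 against 927 in unstressed cells, at least 120-fold lower with a floor of 3 reads. Its fitted difference (-6.61 ± 0.64) depends on the pseudocount and is no bound. With this member at its bound the median at x1 was also -4.50. The smallest falls among the 49 were those of RPL35 at the tunnel exit (-3.02 ± 0.28), RPL43A (-3.14 ± 0.28) and RPL10 (-3.17 ± 0.30), and the largest after RPL31B those of RPL22A (-5.34 ± 0.30), RPL2 (-5.02 ± 0.29) and RPL5 (-4.95 ± 0.33). RPL10 had 871 and 382 RPKM in heat shock. The joined row with UBI4 had 3027 RPKM without drug and 2447 RPKM at x1, the highest level of any member in both libraries.

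Set against oxidative stress in the same fit, a comparison added after the data had been seen, heat shock was lower in 49 of 50 members, with a median of -1.80. Here 64.6% of all rows were called lower, with a median over all rows of -0.90, so that the size of this difference depends on the scaling. With each library centred on its median row, 34 members were called lower and 1 higher, with a member median of -0.96. The largest differences were those of RPL31B (-3.47 ± 0.64), RPL17A (-2.56 ± 0.30), RPL22B (-2.49 ± 0.35) and RPL5 (-2.48 ± 0.33). RPL34 had the smallest called one (-0.83 ± 0.28), which was 0.01 after centring.

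Starvation for amino acids was followed in single libraries and carries no test. Without amino acids 49 of 50 members were more than 2-fold lower than in complete SD (14.6% of all rows), with a median of -3.11 or 8.61-fold. The median of all rows was 0.87, and centring each library on its median row gave a member median of -4.02, so the size depends on the scaling. RPL22A went from 3876 to 213 RPKM (18.2-fold lower, 95% interval 15.4 to 21.5), RPL21 by -3.96 and RPL37B by -3.92 on the log2 scale. RPL35 (-1.65), RPL29 (-1.83) and RPL31A (-2.02) differed least besides the joined row with UBI4 (-0.99). RPL10 had 5071 RPKM in complete SD and 1241 RPKM without amino acids. The depth of the library without amino acids, 1.92 M reads, was the lowest of all.

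With only His, Met and Leu, the amino acids that this strain cannot make, 47 of 50 members were more than 2-fold lower than in complete SD (11.9% of all rows), with a median of -1.70 or 3.25-fold. The median of all rows was 0.54, and the centred member median was -2.19. Against the library without amino acids 35 of 50 members were more than 2-fold higher (7.94% of all rows), with a median of 1.33 or 2.51-fold. Most members therefore stood between both media. The library with His, Met and Leu has primer set 2 and the other SD libraries have set 1, so that set and medium cannot be told apart in both comparisons. RPL22B did not. It had 266 RPKM in complete SD, 27.7 RPKM without amino acids and 318 RPKM with His, Met and Leu, which is 1.20-fold the level of complete SD (1.08 to 1.33) and 11.5-fold the level without amino acids (7.30 to 19.2). RPL29, a dispensable protein of the 60S surface, had 4488, 1261 and 985 RPKM and was the 1 member lower with His, Met and Leu than without amino acids (log2 -0.36). RPL10 had 3144 RPKM with His, Met and Leu, -0.69 from complete SD.

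Members stayed within 2-fold between complete SD and YPD and with edeine or aurin in the lysate, as did most rows of the table. In complete SD no member was more than 2-fold from the unstressed no-drug library in YPD (7.30% of all rows were), from -0.17 (RPL2) to 0.33 (RPL38). With edeine none was (2.24% of all rows), with a median of 0.23 and RPL39 highest at 0.79, 10776 RPKM against 6220 RPKM. With aurin none was (3.74% of all rows), with a median of 0.12 and RPL39 again highest at 0.70. These comparisons share the unstressed no-drug library, so that its own deviation enters all of them.

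In unstressed cells at x100 no member was more than 2-fold from no drug (1.78% of all rows), from -0.28 (RPL5) to 0.53 (RPL32). In oxidative stress 1 member was more than 2-fold higher at x100 (4.54% of all rows), RPL22B with 219 and 220.1 RPKM against 93.4 RPKM. In both stresses the x100 libraries have primer set 2 and the no-drug library has set 1. Set and dose therefore cannot be told apart in these x100 comparisons. At x1 against no drug, with the stresses as blocks, limma called 1 of 50 members lower (2.60% of all rows), RPL5 with -0.999 ± 0.27 (adjusted p = 0.0480). RPL5 had 4094 and 3356 RPKM in unstressed cells without drug and at x1, 938 and 477 RPKM in oxidative stress and 218 and 64.8 RPKM in heat shock. It was lower at x1 in 3 of 3 stresses, as were other members such as RPL10, RPL3 and the RPL11 pair. The call of RPL5 was lost with pseudocounts of 0.1 and 10, without a filter, after centring and in the heat shock and unstressed pairs alone. RPL31B (-1.68), RPL18 (-0.90) and RPL11 (-0.90) did not pass, with adjusted p-values of 0.0834, 0.0620 and 0.0794 by limma.

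**Figure D5:**
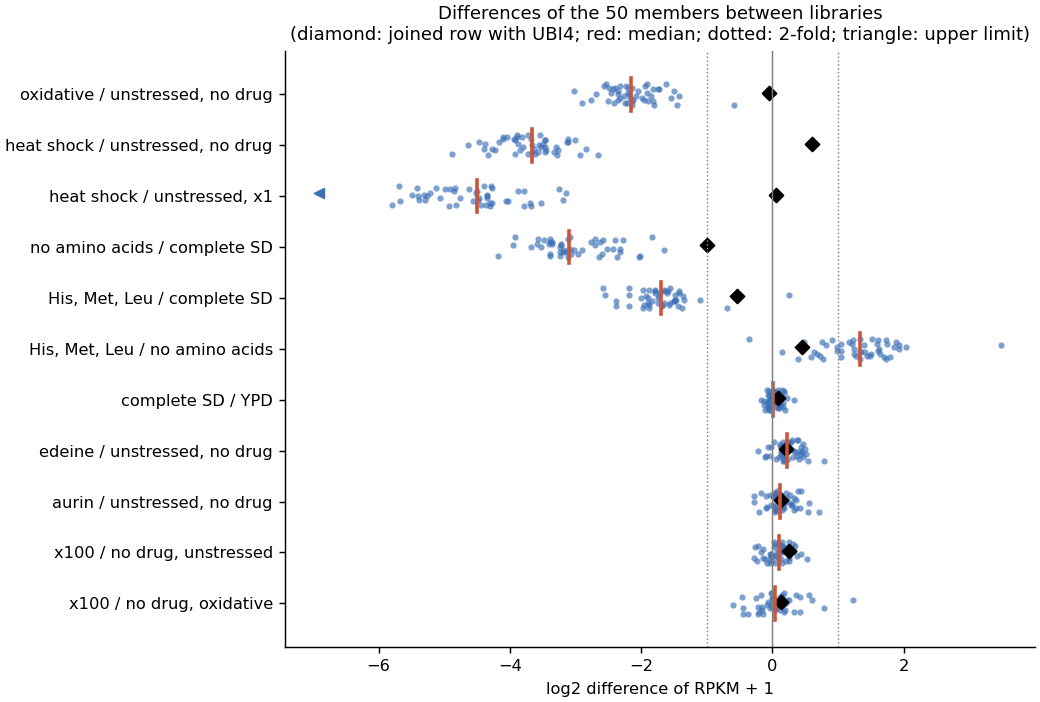
Log2 difference of RPKM + 1 for each of the 50 members (points; diamond, the joined row with UBI4) in the 11 comparisons of single libraries, where x100 is a mean of 2, with the member median as a red line and 2-fold as dotted lines. Medians lie at -2.16 in oxidative stress, -3.66 and -4.50 in heat shock and -3.11 without amino acids, and the triangle marks RPL31B at its bound in heat shock at x1.

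Other genes of the ribosome were read beside the members. In oxidative stress over the doses 40 of 40 RPS rows of the small subunit were called lower (22.7% of all rows were), with a median of -2.51. So were 5 of 5 rows of the stalk proteins RPP0, RPP1 and RPP2 (-2.55) and 17 of 17 rows of chaperones and late assembly factors of the 60S subunit (-2.39). In heat shock the medians were -3.97, -2.99 and -4.04, with all of these rows called lower, where 35.0% of all rows were. Of 6 listed regulators of the ribosomal protein genes 5 were in this fit, of which 2 were higher and 3 lower in oxidative stress. In the single libraries without drug, where no filter was used, the 6 lay between -0.40 (RAP1) and 1.10 (HMO1). There 3 were below 0 and 3 above it, with 2 more than 2-fold higher, where the median of all rows passing the filter was 0.73. At x1 against no drug 13 of 17 assembly factors were called lower (median -1.06), and 1 of 50 members was, where 2.60% of all rows were. The difference between these lists was not tested.

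Over all 23 libraries, each row was set against the median course of the other members, after centring each library on its median row. Pearson's r was 0.910 (RPL22B) to 0.997 in 49 members, with a median of 0.991, and 0.51 in the joined row with UBI4. RPL10 and RPL31B had 0.956 each. Among rows that are not members, RPS6 and RPS18 were close to this course (r = 0.997 each), and 18 of the 20 closest rows hold small-subunit proteins. All of these values share the same libraries.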

How the data were processed

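Footprints of 80S ribosomes from BY4741 were read in 23 libraries. A sample of small subunits was not analysed here. The authors aligned reads with Bowtie 0.12.7 to the S288C genome and deposited RPKM values per row computed with their own Perl code. The treatment of reads with several matches or across introns and of the total behind the RPKM is not given in the sources used here. Near-identical copies are therefore uncertain. The count of reads was recovered from the RPKM as whole multiples (97.0 to 97.7% of low values within 0.1 of a whole number).

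Tests used limma 3.58.1 in R 4.3.3 on log2(RPKM + 1), which understates changes of low rows, over 4383 rows with a mean of at least 10 RPKM. The Benjamini-Hochberg adjusted p threshold was 0.05. The main comparison took 16 libraries with dose as a block, heat shock and x1 took 6 libraries with shared residual spread, and dose slopes took 14. The fits were tested on simulated data first, for stress and drug with changes of 2 and 1 on the log2 scale. Over the doses 100% and 96% of these were found, and at x100 92% and 68%, where 7.51% of the calls were false. In heat shock it was 41% and 0%, and at x1 against no drug 75% and 38%. A missing call in heat shock or at x1 therefore does not show that a member was unchanged. A block that treats doses or stresses as repeats measures the spread among these libraries, which may be technical. Comparisons of single libraries (11) carry no test, and intervals of read ratios are 95% exact binomial ones that cover counting error only.

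Members and lists were chosen with earlier results of these data known. Named were the 4 members with the largest rise and fall in each comparison, the highest and lowest levels, pairs with shifted copies, and fixed role lists. Alternatives changed the pseudocount (0.1, 10), the filter (none, 30 RPKM), the centring, the primer set, the doses and the x100 replicates. The heat shock against oxidative stress contrast, the bend of the dose course and the settings without x1/64 were chosen after seeing the data. Promoter sequences were not used here.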

Additional observations from a re-analysis of the deposited data

Results flagged for a closer look

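The bend of the dose course differed between the stresses in 24 of 50 members by the test of the difference itself (limma, interaction of stress with the squared logarithm of the dose, 9.72% of all rows called), and this is what drew attention to it. All 24 bent more strongly upward at both ends of the dose series in oxidative stress than in unstressed cells, by 0.26 to 0.53. The count was 0 without the x1/64 libraries, with a member median of 0.31 against 0.32 with them, 3 without the primer set as a term and 10 without unstressed x100 replicate 1. The test was added after the data had been seen.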

How the results depend on the processing

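The fall in oxidative stress was called in 50 members over the doses and 49 at x100 under every alternative run, except that x100 gave 50 with centring and 48 without unstressed x100 replicate 2. With a replicate block these counts were 50 and 49, and the block changed no call of a single member in these 2 comparisons, the only ones it was run for. Same-numbered x100 libraries deviated together at r = 0.43 over 2 pairs, too few to show that the numbers pair them. Centring each library on its median row moved the member median to -3.02 over the doses, -2.72 at x100 and -3.83 in heat shock, gave 1 member called higher in heat shock against unstressed cells and 1 against oxidative stress (as did a pseudocount of 10), and turned RPL34 against oxidative stress to 0.00672. At x1 against no drug, 0 members were called lower with centring, without a filter and with pseudocounts of 0.1 or 10, and 3 with a filter at 30 RPKM. The dose slope was called upward in 12 members with centring, in 3 without the primer set, in 0 without the x1/64 libraries and in 0 without x100, and in 0 to 1 when an x100 replicate was left out. The bend in oxidative stress was called in 15 members with centring, in 3 without the x1/64 libraries (member median 0.21 against 0.18 with them) and in 17 to 24 when a replicate was left out. Its difference between the stresses was called in 3 without the primer set, in 0 without the x1/64 libraries (median 0.31 against 0.32) and in 10 to 21 when a replicate was left out. Past 1.5-fold in place of 2-fold, 1 member was higher in heat shock without drug, 1 with edeine, 1 with aurin, and at x100 in oxidative stress 1 was lower and 3 were higher. The cause of these changes was not tested. Limits: most conditions have 1 library, and heat shock and primer set cannot be told apart. Depth was 1.92 M reads without amino acids and 3.51 and 2.94 M in heat shock. These libraries leave RPL22B and RPL31B with few reads (21 and 0 reads on RPL31B in heat shock).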

Other observations

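Assembly factors of the 60S subunit were higher at x100 than without drug in oxidative stress. The list holds 17 rows, among them chaperones of single ribosomal proteins such as SQT1 (for Rpl10), SYO1 (for Rpl5 and Rpl11) and ACL4 (for Rpl4), and late factors such as NMD3 and TIF6. In oxidative stress 10 of the 17 were more than 2-fold higher at x100 than without drug, with a median log2 difference of 1.32, where 4.54% of all rows were and the member median was 0.05 (1 of 50 past 2-fold). In unstressed cells none of the 17 was, with a median of 0.18. With His, Met and Leu 15 of 17 were more than 2-fold lower than in complete SD, with a median of -2.65 (11.9% of all rows were, and the member median was -1.70). These are comparisons of single libraries (x100 as a mean of 2), and the difference between the lists was not tested. The x100 libraries and the one with His, Met and Leu have primer set 2. The no-drug and complete SD libraries have set 1, so set cannot be told apart from dose or medium here.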
